A study of Drosophila melanogaster with 3 samples.

Results

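The 8 genes described here encode enzymes of glycolysis in Drosophila melanogaster: Pgi, Pfk, Tpi, Gapdh1, Gapdh2, Pgk, Pglym78 and Eno. They are 8 of 13945 protein-coding genes on the 6 main chromosome arms. Their entries were taken from peak lists of Antp-eGFP as every entry whose summit lay in the gene's span or within 1 kb of it. By this rule the genes held 13 of the 4351 peaks of the list filtered for irreproducible discovery rate (IDR), 35 of the 30000 entries of the pooled list, and 29, 38 and 34 of the 30000 entries in each of the lists of replicates 1, 2 and 3.

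The lists come from chromatin immunoprecipitation with sequencing (ChIP-seq) in whole Drosophila embryos aged 0 to 24 h, with both sexes mixed. All embryos belonged to 1 group, Antp-eGFP, with 3 biological replicates. The strain AntP-MiMIC-GFP carries an extra exon for enhanced green fluorescent protein (eGFP) inside an intron of Antennapedia (Antp), so the tagged protein is made from the gene's own locus. Per the sample descriptions the fusion was pulled down through GFP, whereas a separate label names Antp as the antibody. Chromatin was sonicated to 200 to 800 bp. No control sample was analysed here, and with 1 group no condition is compared and no test was made: members are described beside all genes or all peaks. A whole embryo mixes every cell type of all these ages, so an entry does not say in which cells the protein sat.

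Glycolysis turns glucose into pyruvate in the cytosol. Pgi isomerises glucose phosphate to fructose phosphate, Pfk adds the second phosphate at the committed step, and Tpi interconverts the triose phosphates that follow. Gapdh1 and Gapdh2 are paralogous glyceraldehyde phosphate dehydrogenases, Pgk makes ATP from the product, Pglym78 moves the remaining phosphate and Eno removes water to give phosphoenolpyruvate. In fly embryos the nuclear receptor ERR is known to switch on many genes of this pathway together midway through embryogenesis. Antp is a homeodomain protein that gives thoracic segments their identity.

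The summits lie near gene starts, and the DNA around a few of them shows what kind of sequence they sit on. The stretches below are from the RefSeq genome sequence of the dm6 assembly. They are read 5′ to 3′ along the strand of the glycolysis gene within 100 bp of the summit, and annotated UTR bases were left out. Capitals mark matches, on either strand, to any of 8 short motifs: the promoter element DRE with the letters TATCGATA, the core promoter motif Ohler1 with GGTCACAC, a Hox core that starts with TAAT and ends with TA, TG, GA or GG, the ERR half-site with AAGGTCA, the hypoxia element core with ACGTG, the TATA word TATAAA, the E-box with CAGCTG and the Zelda motif with CAGGTAG. Gapdh2 (chrX:15867873-15868073, plus strand) and the pair of intronic stretches of Pgk (chr2L:2750352-2750552 and chr2L:2751966-2752166, minus strand) surround 3 of the 4 strongest summits of the 8 genes. The other 3 stretches lie between a start of a glycolysis gene and a start of a neighbour on the opposite strand: Pgk and Bacc (chr2L:2753161-2753232, minus strand), Eno and CG31937 (chr2L:1729763-1729886, minus strand), and Pglym78 and CG11882 (chr3R:29148173-29148247, plus strand). Bacc has a further start inside the span of Pgk, at chr2L:2752445, so the stretch of Pgk and Bacc lies within Bacc.
Gapdh2, upstream: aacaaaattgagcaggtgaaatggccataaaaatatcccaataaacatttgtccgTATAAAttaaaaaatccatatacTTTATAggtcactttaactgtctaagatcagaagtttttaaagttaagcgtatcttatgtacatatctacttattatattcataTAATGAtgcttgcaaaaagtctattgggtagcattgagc
Pgk, upstream of an internal start: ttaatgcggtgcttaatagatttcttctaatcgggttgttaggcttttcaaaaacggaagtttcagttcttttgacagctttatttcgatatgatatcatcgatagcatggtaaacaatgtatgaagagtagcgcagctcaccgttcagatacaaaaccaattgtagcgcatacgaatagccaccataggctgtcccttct
Pgk, first intron: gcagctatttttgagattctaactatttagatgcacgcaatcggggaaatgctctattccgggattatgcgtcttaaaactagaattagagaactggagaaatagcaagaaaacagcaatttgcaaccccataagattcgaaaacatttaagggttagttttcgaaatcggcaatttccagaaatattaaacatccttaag
Pgk and Bacc: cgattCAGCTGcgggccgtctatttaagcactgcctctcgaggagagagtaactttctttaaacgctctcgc
Eno and CG31937: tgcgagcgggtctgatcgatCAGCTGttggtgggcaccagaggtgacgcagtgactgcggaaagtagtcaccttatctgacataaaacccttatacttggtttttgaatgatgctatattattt
Pglym78 and CG11882: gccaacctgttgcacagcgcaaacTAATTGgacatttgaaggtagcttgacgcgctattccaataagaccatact
Matches stand in 4 of the 6 stretches: TATA words and a Hox core at Gapdh2, an E-box between the starts of Pgk and Bacc and between those of Eno and CG31937, and a Hox core at Pglym78. The printed intronic stretches of Pgk hold none of the 8 motifs. With UTR bases left out, none stood around chr2L:2749700 in Pgk, chr3R:30134853 at Tpi or chr2L:1728031 in Eno, stretches not printed here. The word GAGAG, counted further on, was not marked, and it stands in the stretch of Pgk and Bacc.

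At least 1 IDR summit lay at 7 of the 8 genes, all but Gapdh1, beside 30.0% of all protein-coding genes under the same rule. Among the 6861 coding genes whose spans fall in the range of the members (1480 to 7718 bp) the share was 31.7%. With the demand that the gene's own transcription start site (TSS) be the nearest to an IDR summit, Gapdh2, Pgk, Eno, Pgi and Pglym78 remained, 5 of 8 beside 18.8% of coding genes. The same 5 genes had an entry among the 4351 strongest of every replicate list, beside 23.4%. Every member had some entry in the pooled list, where 75.1% of coding genes have one, and 7 of 8 had some entry in all 3 replicate lists, beside 61.7%. These genes were picked for the report after earlier results on the same lists, so the counts describe them and do not stand as independent evidence of enrichment.

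**Figure D1:**
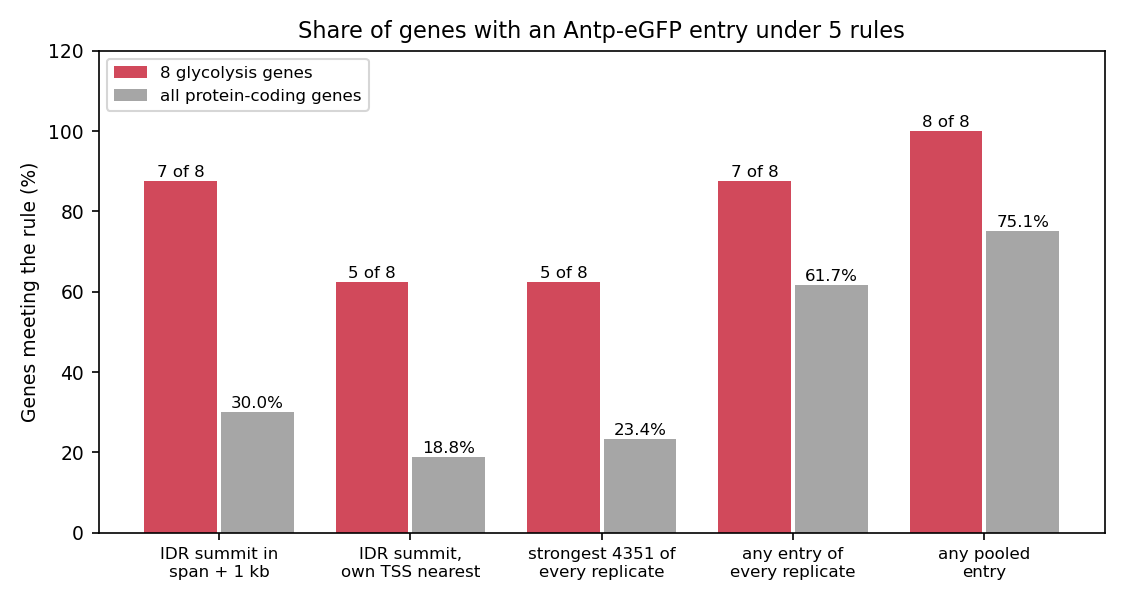
Percentage of genes (y axis, from 0) meeting each of 5 rules, for the 8 glycolysis genes (red, left) and all 13945 protein-coding genes (grey, right). The members' bars are higher under all 5 rules, with the widest gap for an IDR summit in the span plus 1 kb, 7 of 8 genes beside 30.0%.

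All 13 IDR summits of the members fell within 500 bp of an annotated TSS, beside 54.9% of all IDR summits. Their median distance to a TSS was 155 bp, against 346 bp over all IDR summits. The 2 sets are unlike, since member summits were taken only in or within 1 kb of a gene. All IDR summits include 11.6% intergenic and 30.8% intronic ones. Part of the closeness to a TSS is thus set by the rule, and summits at coding genes of like span were not compared. By the pooled summits, members lay upstream of the nearest TSS in 10 of 13 cases, against 62.0% of all IDR summits. In strength they were set beside all IDR peaks by signal and by rank. The deposited signal, the peak caller's strength value, ranged from 103 to 423 with a median of 200.1 at the members, against 103 to 4656 with a median of 172 over all 4351. None of the 13 was among the strongest 435 of the 4351 peaks and 8 were among the strongest 2175. With 13 summits these counts are too coarse to set the members apart from the list. The strongest summit, at Gapdh2, had 11.0% of IDR peaks above it, and the next, at Pgk, had 12.8%, 13.4% and 14.6%. At gene level the median rank of the members' strongest pooled entry was 1456.5 (rank 1 is strongest), against 6223 over the coding genes with an entry and 10862 with genes without one placed last. Over the 4186 coding genes with an IDR summit the median was 1740.5. Much of this contrast thus restates that most members have an IDR summit. The sets are not alike, since the members' median includes Gapdh1, without an IDR summit, at rank 15562. The 7 members with an IDR summit ranked 479, 558, 943, 1156, 1757, 3338 and 3566. In replicates 1, 2 and 3, with genes lacking an entry placed last, the medians were 1558.5, 1479.5 and 1723 over the members, against 10788, 10605 and 10910 over coding genes.

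**Figure D2:**
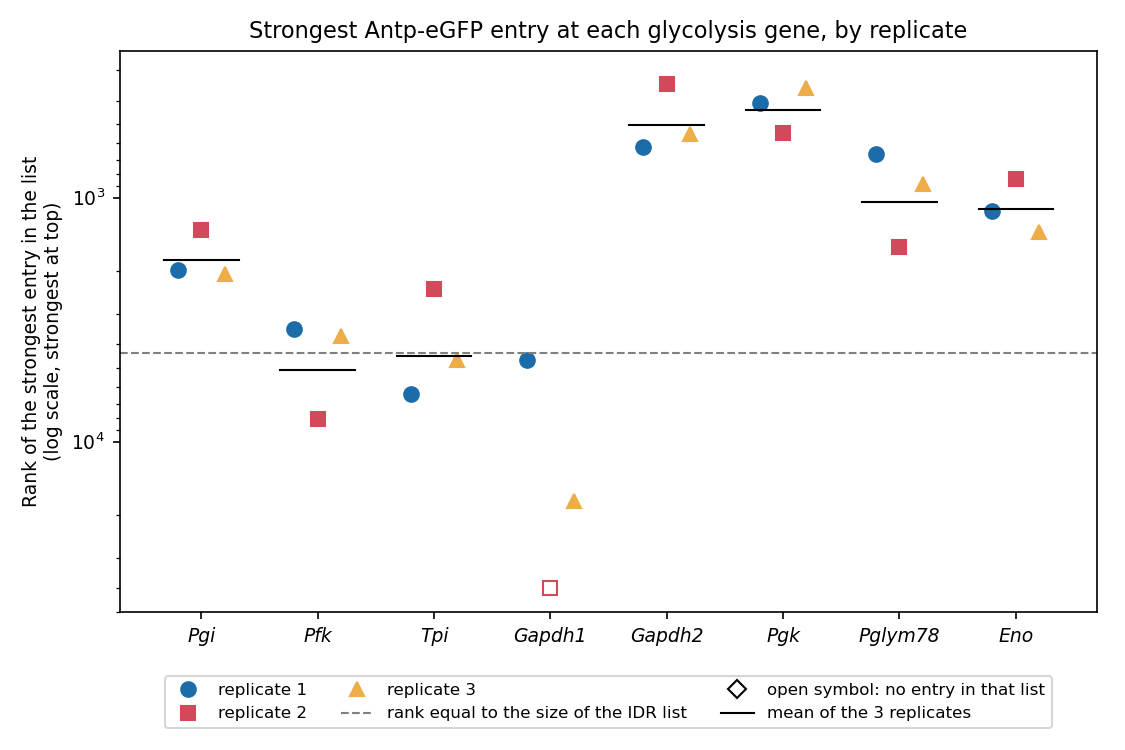
Rank of the strongest entry at each gene (y axis, log scale, strongest at top) in replicates 1, 2 and 3, with genes in pathway order, bars for the mean of 3 replicates and a dashed line at rank 4351. Gapdh2, Pgk, Pglym78, Eno and Pgi lie above the line in all 3 replicates, whereas Gapdh1 lies below it and has no entry in replicate 2 (open symbol).

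Of the 3 enzymes of the upper part of the pathway, Pgi had the strongest entry. Ranks of an entry are given in the order of replicates 1, 2 and 3. Pgi (FBgn0003074, chr2R:8910900-8914069, minus strand) had 1 IDR summit, at chr2R:8914058 in its 5′ UTR, 11 bp downstream of its TSS, with a pooled signal of 200.1. Its replicate ranks were 1987, 1364 and 2060, a mean of 1804 ± 383 (SD, n = 3), all inside the strongest 4351. Replicate summits ran over 88 bp and lay on either side of the TSS. The gene lin starts 466 bp from the pooled summit on the other strand.

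Pfk (FBgn0003071, chr2R:10109740-10117457, plus strand) is the longest member, and its only IDR summit was not at its start. The summit at chr2R:10117672 lay past the 3′ end of Pfk, 22 bp upstream of the TSS of dmpd and 6802 bp from the nearest TSS of Pfk. The pooled signal was 121, and the ranks of that summit were 3473, 8163 and 3701, of which replicate 2 fell outside the strongest 4351. In replicate 2 a coding-exon entry of Pfk stood slightly higher, at rank 8060. No replicate placed an entry within 500 bp of a Pfk TSS that was stronger than rank 15974, so the call at Pfk rests on a summit at the start of its neighbour.

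Tpi (FBgn0086355, chr3R:30132981-30134599, minus strand) had a summit at chr3R:30134853, between genes and 254 bp upstream of its own first TSS. The nearest TSS, at 155 bp, belongs to the noncoding gene asRNA:CR46082 on the other strand. The summits of replicates 2 and 3 fell in the 3′ UTR of a further gene, AdoR. The pooled signal of the Tpi summit was 127, and its ranks of 6369, 2378 and 4643 (mean 4463 ± 2002, SD, n = 3) put it in the strongest 4351 of replicate 2 only. Pfk and Tpi overlapped in their replicate ranks, so these lists do not order them.

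The Gapdh paralogs stood at opposite ends of the 8 genes in pooled signal. Gapdh2 (FBgn0001092, chrX:15868145-15869661, plus strand) had the highest signal of all 8 genes, 423, at chrX:15867973, 172 bp upstream of its TSS and between genes. Its ranks were 618, 342 and 547 (mean 502 ± 143, SD, n = 3), and the 3 replicate summits fell within 14 bp. Gapdh1 (FBgn0001091, chr2R:7791901-7793380, minus strand) had no IDR summit. Its strongest pooled entry, at chr2R:7792672 in the coding sequence 558 bp downstream of its nearest TSS, had a signal of 46.3 and rank 15562. Replicate 1 ranked an entry 3 bp from it at 4652, just outside the strongest 4351, replicate 2 listed none within 1 kb of the gene, and replicate 3 listed 1 at rank 17615 and another at 17889. The coding sequences of the paralogs are 996 bp each and 88.8% identical. Of the 3445 words of 36 bp in Gapdh1 with its 1 kb flanks 3 occur elsewhere in the genome, and 3 of 3482 at Gapdh2, while the other 6 genes have 0. The read length was not known here, so the word length is a choice, and the part of shared reads in these values was not tested.

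Pgk (FBgn0250906, chr2L:2746880-2753068, minus strand) held 5 of the 13 IDR summits. At least 3 IDR summits were found at Pgk and Eno, 2 of 8 members, beside 0.860% of the 6861 coding genes in the members' range of span, and at least 5 at 0.0437% of them, which is 3 genes including Pgk. Pgk has 5 annotated starts, spread over its noncoding exons, and its 3 strongest summits differed little in signal. The summit at chr2L:2748685, in the 5′ UTR and 198 bp upstream of the start nearest the coding exons, had a signal of 397 and ranks 470, 852 and 529. The summit at chr2L:2750452, in an intron and 305 bp upstream of the next start but one, had a signal of 386 and ranks 410, 543 and 768. Another, at chr2L:2752066 in the first intron, had a signal of 369 and ranks 2215, 838 and 355. It lay 1077 bp upstream of the nearest downstream Pgk start and 379 bp upstream of a TSS of Bacc, a gene on the other strand whose TSS is the nearest. Replicate 1 also had an entry of rank 831 only 111 bp from that summit, and without replicate 1 the mean rank of the site was 596.5, against 1136 with all 3.

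The remaining summits of Pgk were weaker. The summit at chr2L:2753261 had a signal of 180 and ranks 896, 2583 and 3636. It lay in a 5′ UTR of Bacc, 28 bp inside a TSS of that gene and 193 bp upstream of the first Pgk TSS. The summit at chr2L:2749700, 387 bp upstream of another Pgk start, had a signal of 103 and pooled rank 4347, at the very end of the IDR list. It was matched in replicates 1 and 3 at ranks 2119 and 6101, and replicate 2 had no summit within 100 bp but an entry of rank 7908 at chr2L:2749597. With matches within 200 bp the mean rank of the site was 5376, against 12740.3 within 100 bp with the missing match placed last. Neighbouring IDR summits in Pgk were 1015, 752, 1614 and 1195 bp apart, farther than the longest sonicated fragment of 800 bp in 3 of the 4 gaps. For the gene as a whole the strongest entries ranked 410, 543 and 355 (mean 436 ± 96.7, SD, n = 3), which overlaps the range of Gapdh2.

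Pglym78 (FBgn0014869, chr3R:29148248-29149901, plus strand) had a summit at chr3R:29148245, 3 bp upstream of its TSS, with a signal of 301. CG11882 starts 73 bp from the summit on the other strand, just outside the IDR interval (chr3R:29148176-29148275). The ranks of the Pglym78 summit were 662, 1595 and 880 (mean 1046 ± 488, SD, n = 3), and replicate summits fell within 13 bp of each other. Unlike the pooled summit, those of replicates 1, 2 and 3 lay downstream of the TSS, by 30, 24 and 37 bp, in the 5′ UTR. The paralog of Pglym78, Pglym87, had no IDR summit, with 77.5% of aligned coding bases identical.

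Eno (FBgn0000579, chr2L:1724768-1729636, minus strand) had 3 IDR summits. The strongest, at chr2L:1728031 in an intron and 314 bp upstream of its most downstream start, had a signal of 265 and ranks 1425, 1826 and 1386. Replicates 1 and 2 each had a still stronger entry nearer that start, at 105 and 166 bp from it with ranks 1130 and 836, whereas replicate 3 had only 1 entry there. The other 2 summits flank the first Eno TSS and are 202 bp apart. The summit at chr2L:1729626 (signal 131, in the 5′ UTR of Eno, which overlaps the 3′ UTR of the exosome subunit gene Rrp40) was matched at ranks 3983 and 2531 in replicates 1 and 2 but not in replicate 3. The summit at chr2L:1729828 (signal 111, 59 bp upstream of CG31937 and 192 bp upstream of Eno) ranked 3811 in replicate 3 and 11333 and 29178 in replicates 1 and 2. Without replicate 2 its mean rank was 7572, against 14774 with all 3. Replicates 1 and 2 thus placed their main entry 31 and 15 bp from the Eno TSS, and replicate 3 placed its own 68 bp from that of CG31937, a spacing under the fragment size.

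**Figure D3:**
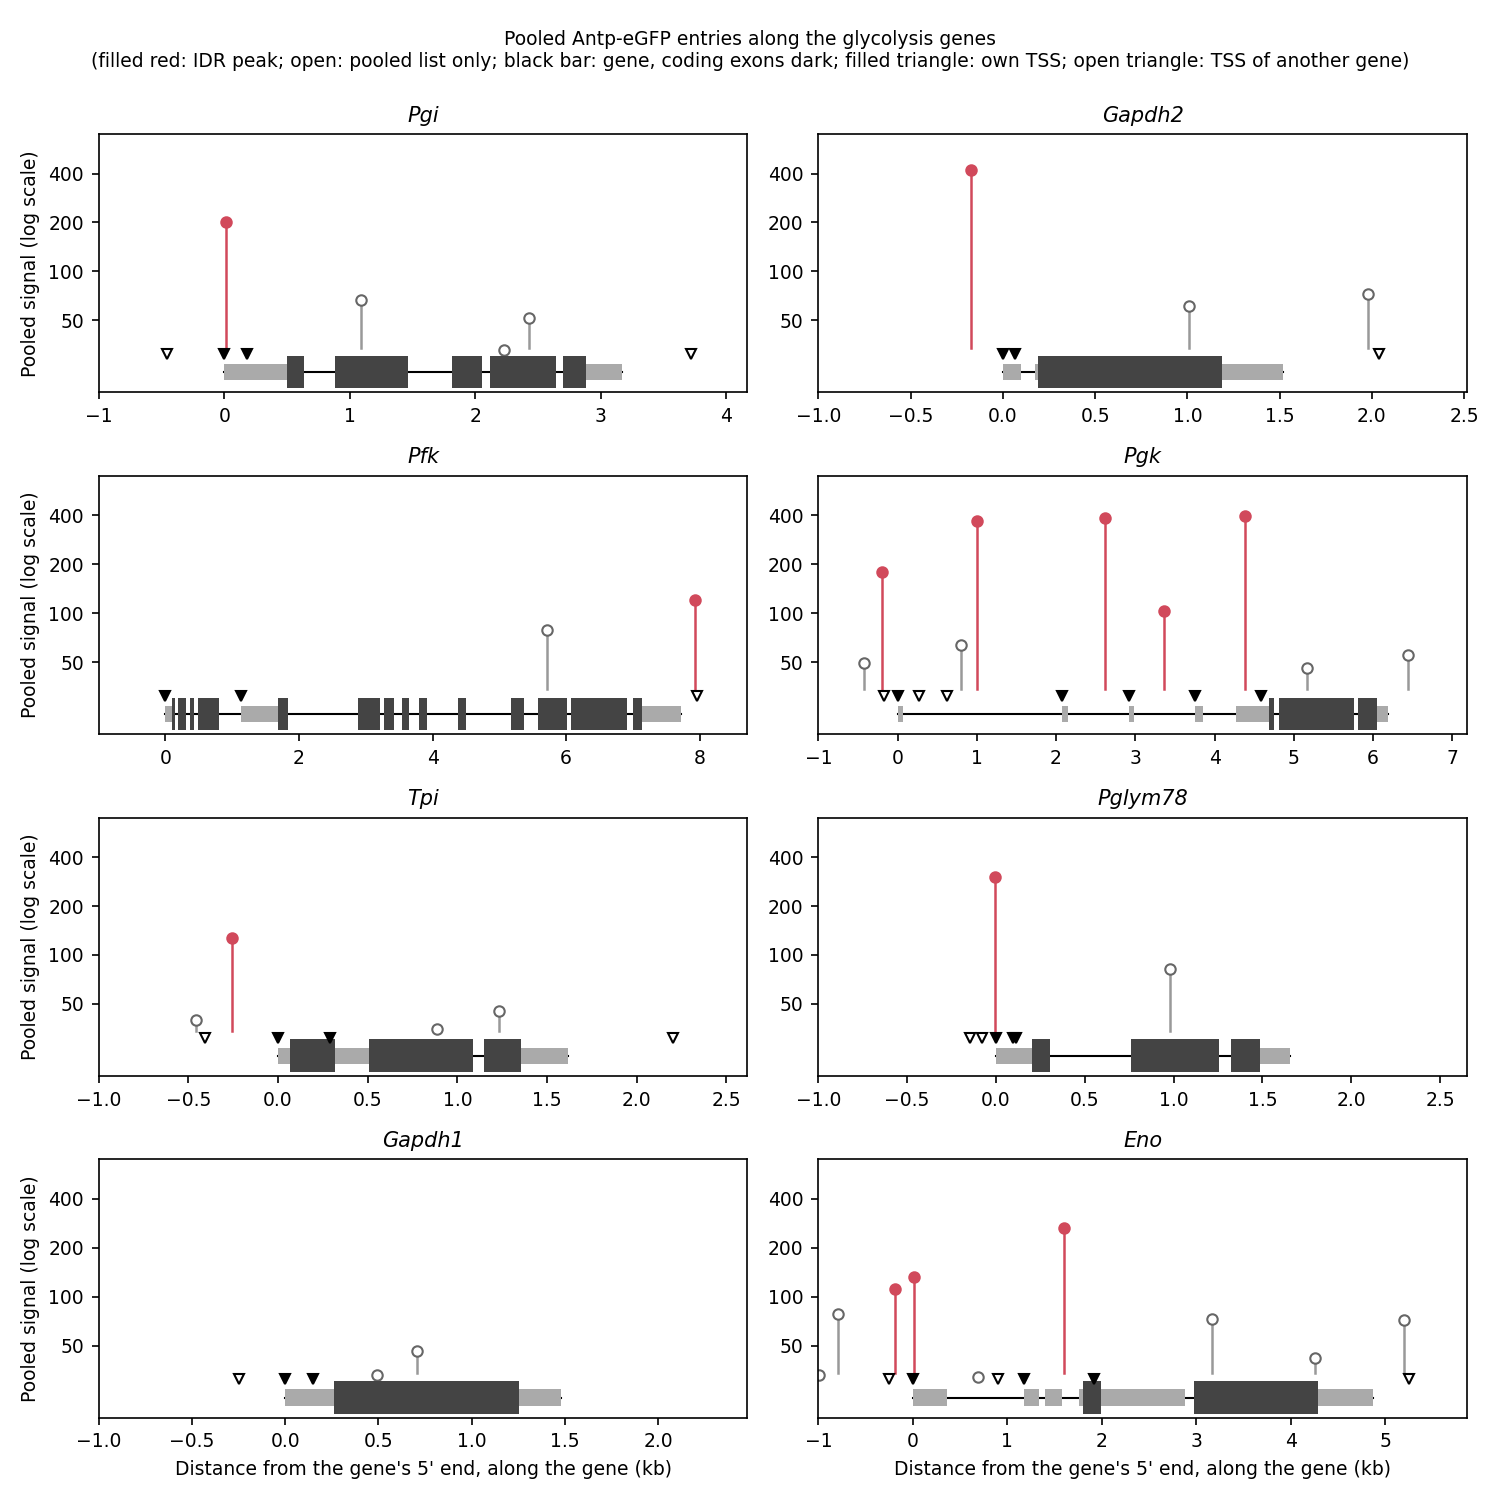
Pooled entries along each gene: distance from the gene's 5′ end in kb (x axis) against deposited pooled signal (y axis, log scale), with IDR peaks in filled red, other pooled entries open, exons on the black line (coding exons dark) and TSSs as triangles, open for other genes. Pgk shows 5 IDR peaks from 0.193 kb upstream to 4.383 kb downstream of its 5′ end, Pfk has its single IDR peak at 7.932 kb beside the start of dmpd, and Gapdh1 has no entry above a signal of 46.3.

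Of the 13 summits, 11 were matched within 100 bp in all 3 replicates and 8 ranked in the strongest 4351 of each. The same counts were not made over all IDR summits, so whether 11 and 8 of 13 are usual is not known. Those 8 are the single summits of Gapdh2, Pgi and Pglym78, 4 of the 5 at Pgk, and the intronic one at Eno. Per replicate, 6 of the 8 genes had an entry in the strongest 4351 in every list, with Pfk among them in replicates 1 and 3 and Tpi in replicate 2, beside 29.5%, 30.1% and 29.4% of coding genes.

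**Figure D4:**
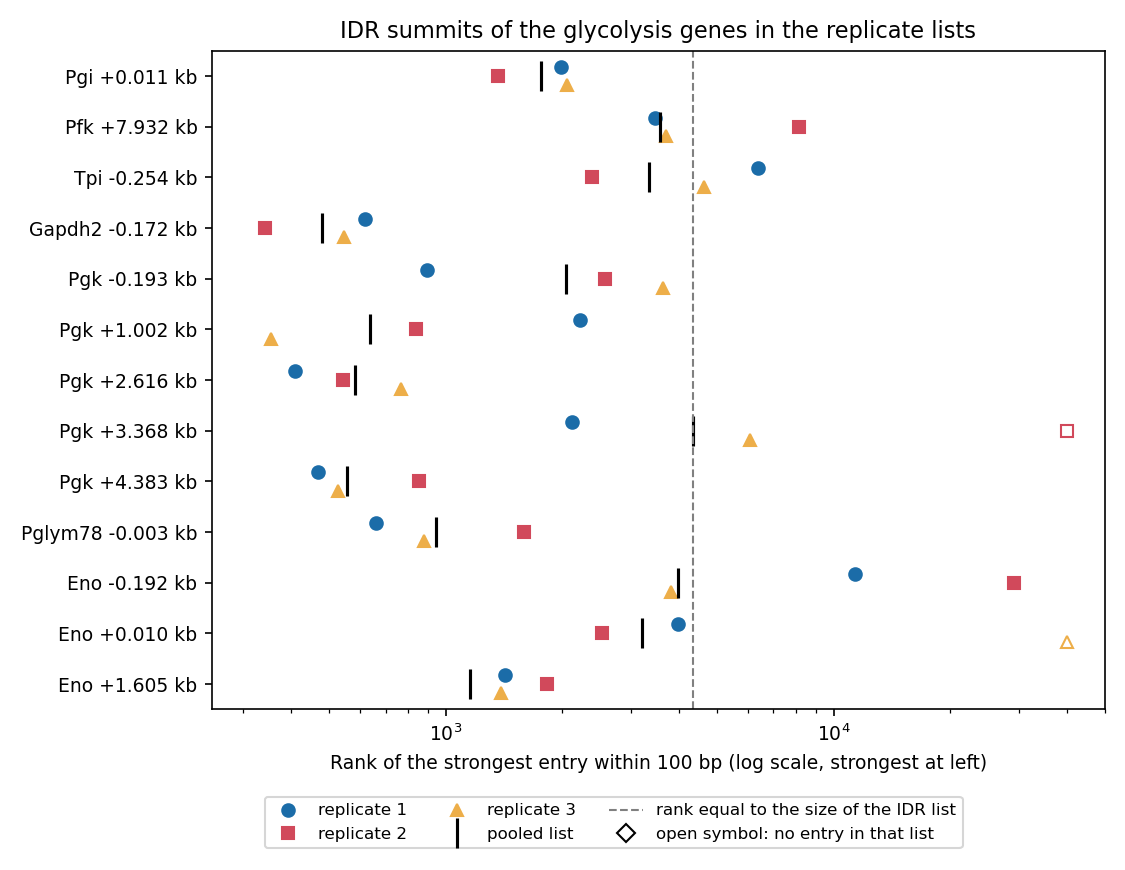
Rank of the strongest replicate entry within 100 bp of each IDR summit (x axis, log scale, strongest at left) for the 13 summits, named by gene and distance from its 5′ end in kb, with black ticks for the pooled rank, open symbols for no match and a dashed line at rank 4351. The summits of Gapdh2, Pgi, Pglym78, 4 of Pgk and the one at +1.605 kb in Eno lie left of the line in all 3 replicates.

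Outside the promoter class, the members' entries sat mainly in coding exons. Of 35 pooled entries 15 were in coding sequence, of the member or of a neighbour, more than 500 bp from a TSS (42.9%), against 23.2% of all 30000, and 0 of these 15 reached the IDR list, which holds 29 summits in coding sequence beside 6970 such entries in the whole pooled list. The strongest was in Pglym78, at chr3R:29149228 with a signal of 82.1 and pooled rank 5817, followed by Pfk at 79.2 and rank 6122. The share was not adjusted for how much of each gene is coding. In the replicate lists, coding entries at the members entered the strongest 4351 in 1 of 11 cases in replicate 1 (Eno, rank 3435), 0 of 13 in replicate 2 and 1 of 14 in replicate 3 (Pglym78, rank 3910). Over all coding entries of these lists the counts were 143 of 7692, 42 of 5789 and 51 of 6452.

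Short motifs were counted within 100 bp of the 13 summits. DRE, bound by the factor DREF, was found within 100 bp of 0 of 13, against 4.80% of all IDR summits and 6.45% of windows at coding TSSs, and the core promoter motif Ohler1 at 0, against 2.80% and 5.68%. A Hox core, the short word homeodomains bind, stood at 3 of 13 (Gapdh2, Pfk and Pglym78), against 40.3% and 32.9%. The E-box CAGCTG was found at 4 of 13 (2 summits of Pgk, 1 of Eno and Pglym78), against 11.5% and 13.4%. GAGAG, the word of GAGA factor, was at 4, against 25.1% and 25.0%, and TATAAA at 3, against 26.4% and 26.9%. The Zelda motif and the hypoxia element core were at 0, against 1.08% and 15.6% of IDR summits and 1.08% and 18.3% of TSS windows. With 13 summits, of which 5 are in 1 gene, such shares are coarse, and a match is not evidence of binding. GC content of the windows averaged 42.1% ± 7.43 at the members (SD over 13 windows), against 39.2% ± 6.95 over all 4351.

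The ERR half-site was found within 100 bp of 0 of 13 member summits, against 1.31% of IDR summits and 1.22% of TSS windows. Within 250 bp it was found at 3 of 13, in Pgk, Eno and Pglym78, against 3.75% of all IDR summits. In that wider window the hypoxia element core ACGTG stood at 7 of 13, against 37.2%. No TSS windows were counted at 250 bp. All 13 member summits lay within 500 bp of a TSS, beside 54.9% of all IDR summits, so the sets are unlike. Within 50 bp the ERR half-site was at 0 of 13. A link to ERR was not tested.

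Further glycolysis genes were examined from a list of their own. Of 9 further genes of the pathway 3 had an IDR summit, close to the 30.0% of all coding genes: the hexokinase gene Hex-A with a signal of 364, Ldh for lactate dehydrogenase with 118 and PyK for pyruvate kinase with 115. The aldolase genes Ald1 and Ald2 had none, although Ald1 spans 7523 bp. Of these 9, 1 (Hex-A) had an entry in the strongest 4351 of every replicate, beside 23.4% of coding genes.

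Neighbouring pathways had summits as well. Of 12 genes of gluconeogenesis, trehalose and glycogen 6 had one, led by Pgm1, for phosphoglucomutase, at a signal of 583, Treh, for trehalase, at 214, Glyp, for glycogen phosphorylase, at 173 and Pepck1 at 142, while Pepck2 and UGP had none. A list of 6 genes held the glycerol phosphate and pentose phosphate branches and also Pfrx, which belongs to neither branch. Of these 6 genes 5 had a summit, and Gpo1 had none. They were led by Zw, for glucose phosphate dehydrogenase, at 1246 and rank 51, Gpdh1 at 316, Pfrx at 262 and Pgd at 132. The stronger of the 2 summits of Zw was 864 bp from the TSS of asRNA:CR44512, which is the nearest. The strongest summit of Treh was nearest to a TSS of CG10527, at 603 bp. Of 13 genes of pyruvate use and the tricarboxylic acid cycle 8 had a summit, led by mAcon1 at 389, Fum1 at 378, SdhB at 296 and Mpc1 at 197, of which only that of Fum1 had its own TSS nearest, and SdhA and Scsalpha1 had none. Over these 4 lists and the regulators, 27 of 47 genes had an IDR summit, beside the 30.0% of all coding genes given above. Of the 47, 18 had an entry in the strongest 4351 of every replicate, beside 23.4%. Neither share of coding genes was matched to the lists by span.

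Among 7 regulators of sugar metabolism 5 had an IDR summit, beside 30.0% of all coding genes. The strongest were bigmax at 456, sima, the fly hypoxia-inducible factor, at 406, Myc at 395 and ERR at 354. The strongest summit of sima lay 1612 bp from the nearest TSS, its own. That of Myc lay 8732 bp from the nearest TSS, a distance shared by Myc and lncRNA:CR44999. The stronger of the 2 ERR summits was nearest to the TSS of Atg18a, at 57 bp. The genes sug and tgo had no IDR summit. The summits of sima lay in a span of 63488 bp, far longer than any of the 8 glycolysis genes. Mondo and Myc, which also had a summit, span 23973 and 18539 bp, whereas ERR and bigmax span 3311 and 1161 bp. The share of 30.0% was not matched for span.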

How the data were processed

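Antp-eGFP ChIP-seq peak lists of 3 biological replicates (1 group) were used in dm6 coordinates, written 1-based. Per the deposited descriptions, the authors called 30000 entries per replicate and on pooled alignments, and derived the IDR list. No source used here gives the aligner, the peak caller or the threshold for IDR. Entries were ranked within a list by the signal the authors deposited. The deposited −log10 q-value served as an alternative ranking only, since 3253 of 4351 IDR peaks tie at its top. The IDR list equals the 4351 strongest pooled entries. Without read counts the depth is unknown and no interval is given.

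Summits were assigned to Ensembl release 115 spans plus 1 kb, without transposable elements, and to the nearest TSS. A replicate match was the strongest summit within 100 bp. Motifs were exact words on both strands. The rule for genes of other lists was up to 4 summit-bearing genes of highest signal and up to 2 longest without. Exceptions in single replicates were named after their values were seen, as was the order of coding entries. Members and lists were chosen with earlier results of these data known. Python 3.11.15 and pandas 2.3.3 were used, and the counting was tested on simulated data. Replicates are biological per the labels. Alternatives are below.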

Additional observations from a re-analysis of the deposited data

How the results depend on the processing

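The extension of the gene span changed the counts. With no extension 3 of the 8 glycolysis genes (Pgk, Eno and Pgi) and 16 of the 47 other genes had an IDR summit, beside 11.8% of coding genes. With no extension 3 members had an entry in the strongest 4351 of every replicate. The share of coding genes under that rule was not counted. The median pooled rank of the members was then 5969.5. The member summits lost lie upstream of the gene or, at Pfk, past its end. With 500 bp and 5 kb the count was 7, beside 26.9% and 48.7%, and with 5 kb the median rank was 1256.5. With the nearest TSS only, or only the strongest 2175 IDR peaks, it was 5, beside 20.6% and 17.9%. Ranked by −log10 q the median pooled rank was 1627. Leaving out each replicate moved the median over members of the mean replicate rank between 1402 and 1640.75 (1460.5 with all 3), and the median over summits of the mean rank between 1675.5 and 2023.5 (1803.67 with all 3). With matches within 50 bp this was 10937.3, as unmatched summits take rank 30001. The Hox core stood at 1 of 13 summits within 50 bp and at 9 within 250 bp, beside 22.3% and 70.8% of all IDR summits. No paired analysis was possible because there is 1 group. Unknown depth limits all ranks: a gene without an entry is not shown to lack the protein.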
